A study of Mus musculus with 12 samples.

Results

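Epithelial defence and acute phase genes were described in the colon epithelium of mice through 10 listed genes, namely Lcn2, Saa1, Saa2, Saa3, S100a8, S100a9, Pglyrp1, Ang4, Il18 and Nos2. Members were the probe sets whose array annotation gives 1 of these symbols. The rule found 10 probe sets for 9 genes, 2 of them for Saa1, among 12393 genes named on the array. Ang4 had no probe set under its symbol and is not analysed here. The 12 arrays fall into 4 groups of 3: POR-null mice given quercetin, POR-null mice on the control diet, wild type mice given quercetin and wild type mice on the control diet. POR is NADPH-cytochrome P450 reductase, the electron donor of microsomal cytochromes P450, and quercetin is a flavonol of edible plants. All mice were C57BL/6 males aged 6 to 8 weeks that had been adapted for 14 days to a soya-free RM3 powder. Quercetin was then mixed into that powder at 6200 ppm, about 7 mg per mouse, and tissue was taken 24 h later, with mice on the plain powder as controls. RNA from scraped colon epithelium of 3 mice was pooled for each array, so that a group stands for 9 mice and the error between arrays is that between pools. The labels call the line null without naming a promoter or cell type for the deletion. As background, the established line of this name loses the gene in hepatocytes, and the gene itself is not analysed here.

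The epithelium of the colon faces dense microbial communities, and its cells secrete proteins that starve, bind or kill microbes. Lipocalin 2 traps bacterial iron carriers, calprotectin, the pair of S100a8 and S100a9, withholds metals, and peptidoglycan recognition protein 1 acts on bacterial cell walls. Serum amyloid A proteins are acute phase proteins of the liver, and in mice they are also made by intestinal epithelium under signals from microbes and from the cytokine IL22, where they bind retinol and act on T helper cells. Interleukin 18 is stored in epithelial cells as a precursor that caspases cut, and inducible nitric oxide synthase (Nos2) makes nitric oxide in inflamed mucosa.

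Values are deposited log2 signals, on which 1 unit is a doubling, and each was compared only with the same probe set on other arrays. Array medians lay between 5.9 and 5.98, and lower quartiles between 4.66 and 4.78. Colonocyte markers (12 of 13 measured) averaged 11.35 to 11.67 on the 12 arrays and goblet cell markers (8 of 9 measured) averaged 11.98 to 12.46. No level that would mark presence or absence was set for these markers. Some arrays stood apart in markers of other tissues. Pancreatic acinar markers (8 of 12 measured) averaged 10.14 on POR-null quercetin array 2, 9.18 on wild type control array 1 and 7.65 on wild type control array 2, against 6.06 to 7.29 on the other 9 arrays. Smooth muscle markers (10 of 10 measured) averaged 9.24 on wild type quercetin array 3, and 5.57 to 7.45 on the other arrays.

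No member passed the threshold in any of the 5 comparisons, which were quercetin against control diet in each genotype, POR-null against wild type on each diet, and the difference between the genotypes in the response to quercetin. The threshold was an adjusted p below 0.05 (limma, Benjamini-Hochberg over 22626 probe sets), and 0 probe sets of the whole array passed it in each comparison (0%). The results below are therefore measured values, with unadjusted p values that carry no call. Saa1 and Saa2 were the most variable members. The SD left within groups placed the Saa1 probe sets 1419075_s_at and 1450788_at at the 98.9 and 98.7 percentiles of all probe sets, Saa2 at 97.7, Il18 at 96.9 and Saa3 at 94.2. Pglyrp1 lay at the 80.5 percentile, Nos2 at 78.5, Lcn2 at 51.2, S100a9 at 29.8 and S100a8 at 5.15.

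**Figure D1:**
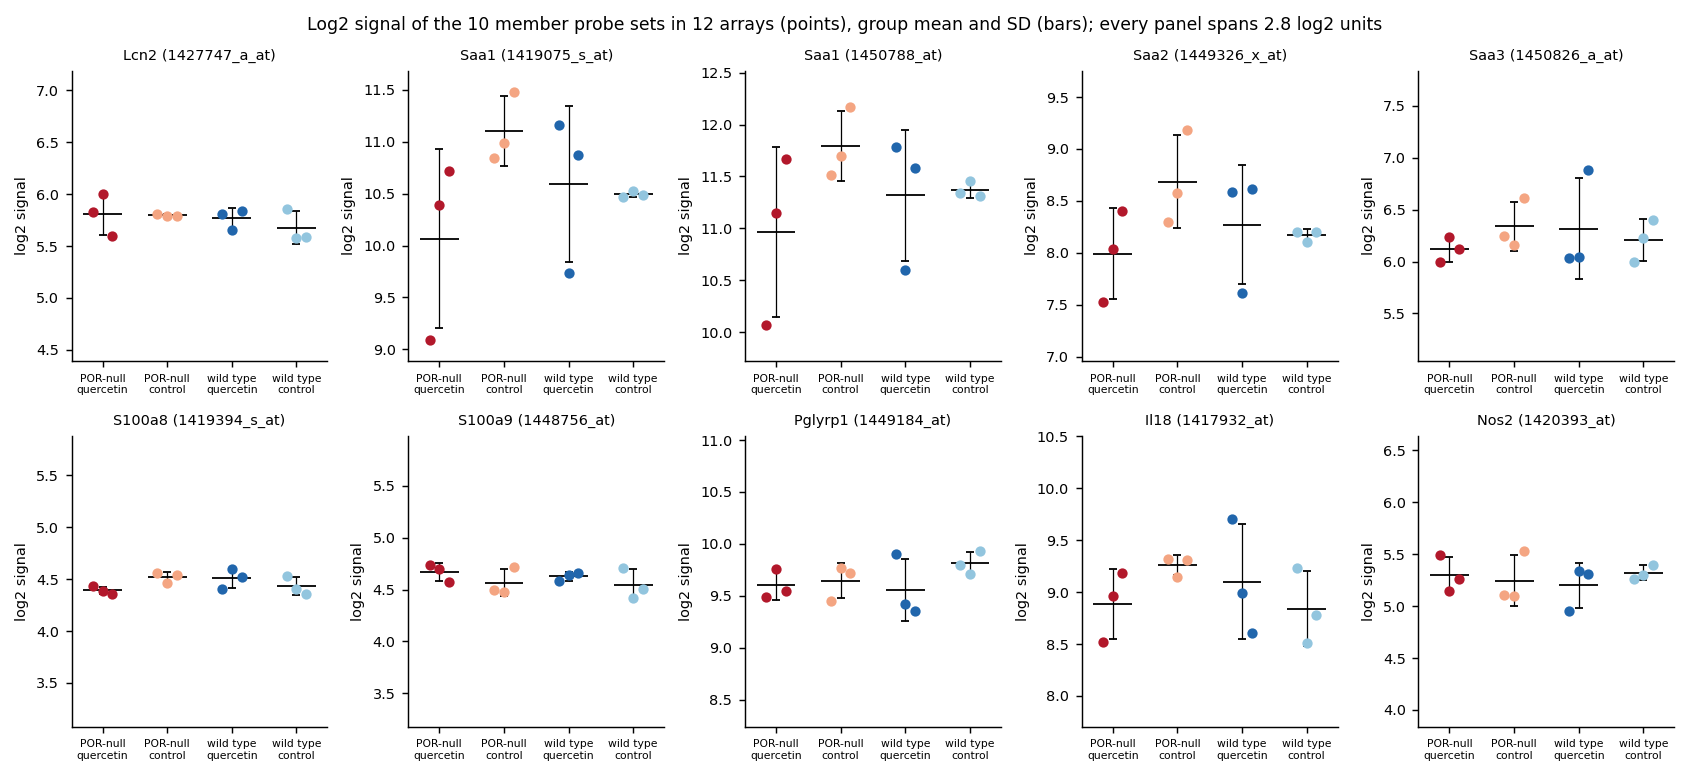
Log2 signal (vertical axis, 2.8 units in every panel) of the 10 member probe sets on 12 arrays, by group; points are arrays, bars are the group mean and SD of 3 arrays. Saa1 and Saa2 spread over 1.65 to 2.39 units, while S100a8 spreads over 0.24 units.

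Saa1 and Saa2 are neighbours on mouse chromosome 7 that are transcribed away from each other, and Saa3 lies in the same cluster, beyond Saa4 and a pseudogene. Since the pair moved together over the arrays, their start site windows are shown, 250 bases before to 50 bases after each start in RefSeq on GRCm38.p6. Saa1 is at chr7:46742931-46743230 on the minus strand and Saa2 at chr7:46751583-46751882 on the plus strand. Both are written 5′ to 3′ along their own gene, and capitals mark bases that differ from the other gene or have no counterpart in it.
Saa1: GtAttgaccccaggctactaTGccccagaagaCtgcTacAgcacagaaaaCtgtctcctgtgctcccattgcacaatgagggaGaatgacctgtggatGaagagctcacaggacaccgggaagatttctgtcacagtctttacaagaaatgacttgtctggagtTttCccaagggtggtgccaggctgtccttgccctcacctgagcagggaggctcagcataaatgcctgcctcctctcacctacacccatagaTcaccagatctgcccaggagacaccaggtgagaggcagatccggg
Saa2: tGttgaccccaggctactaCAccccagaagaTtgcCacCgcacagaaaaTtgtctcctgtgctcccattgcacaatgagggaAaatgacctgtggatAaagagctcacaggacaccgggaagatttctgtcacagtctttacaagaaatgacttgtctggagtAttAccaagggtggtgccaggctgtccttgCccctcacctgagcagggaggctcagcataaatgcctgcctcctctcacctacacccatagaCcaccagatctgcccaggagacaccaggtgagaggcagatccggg
The windows shared 287 of 301 aligned positions (95.3%), with 12 substitutions and 2 gaps. Both hold TTGCACAA, starting at base 69 of the Saa1 window and base 68 of the Saa2 window, a match to TTGCNCAA, the letters of a C/EBP motif. That motif, searched on both strands, was found in 966 of 32851 such mouse windows (2.94%) and in 3 of the 9 listed genes with a window, Lcn2, Saa1 and Saa2. A kappaB motif, also searched on both strands, was in 11.2% of windows and in Lcn2, Saa1 and Pglyrp1. A match of letters is a description and not a measured site.

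The windows lie mostly before the start site, so their likeness does not show how alike the transcripts are, which was not measured here. What the probe sets measure was read from their annotation. Of the Saa1 probe sets, 1450788_at carries a Saa1 transcript as its source, while 1419075_s_at is annotated as Saa1 although the transcript given as its source is Saa2 in RefSeq. The suffixes of 1419075_s_at and of the Saa2 probe set 1449326_x_at are those Affymetrix gives to probe sets that may bind several transcripts. Signals of Saa1 and Saa2 can therefore not be fully separated, and the 3 probe sets are not independent measurements. Over the 12 arrays the Saa1 probe sets correlated with each other at r = 0.989. Saa1 (1450788_at) and Saa2 correlated at r = 0.937 and at Spearman's rho = 0.935. Since such probe sets may bind both transcripts, a high correlation may be built into these measurements. It is given as a description without a p value. Without the 2 arrays farthest from the median of Saa1, r was 0.941, and it was 0.927 for deviations from the group means.

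The 3 probe sets put the arrays in nearly the same order. POR-null control array 3 was highest in each, and POR-null quercetin array 1, wild type quercetin array 2 and POR-null quercetin array 2 were the lowest, next lowest and the third from the bottom in each. Low arrays were thus found in quercetin groups of both genotypes. Saa3 spread over a narrower range of 0.88 units and correlated less closely. It had r = 0.454 to Saa1 (1450788_at) and r = 0.574 to Saa2, as descriptions over arrays that share groups. By Pearson's r to Saa1 (1419075_s_at) over the 12 arrays, the probe sets of other genes most like it were Saa2 (0.944), Six4 (0.862), Scaf11 (0.855), Smim27 (0.848) and Wars (0.842). The last 4 spread over far narrower ranges, from 4.95 to 5.39 for Six4 and from 7.97 to 8.63 for Wars. These are the highest r of a search over all probe sets with 1 other symbol, on arrays that share groups. No test was made, and a search of this size can give high r without a shared control.

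**Figure D2:**
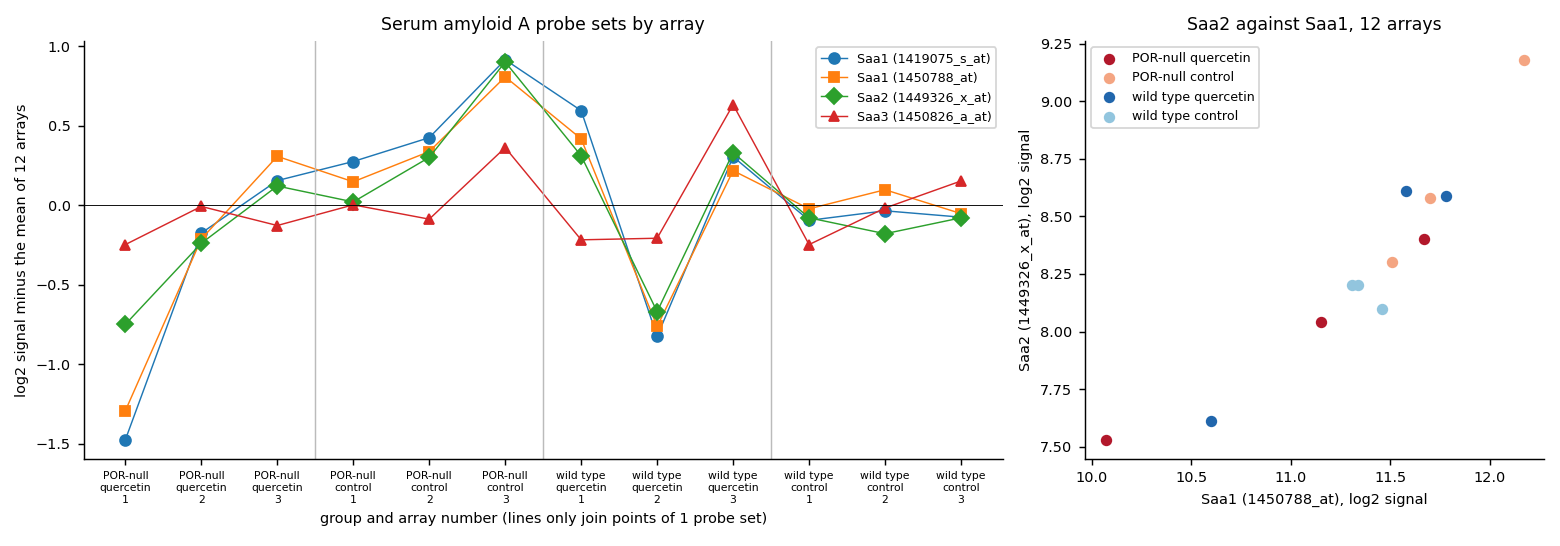
Left, log2 signal of 4 serum amyloid A probe sets minus their mean over 12 arrays (vertical axis), by group and array number; right, Saa2 against Saa1 (1450788_at) in log2 signal, each point an array. Saa1 and Saa2 share their highest array and their 3 lowest arrays, and Saa3 (triangles) stays within a range of 0.88 units.

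In POR-null mice, quercetin was set against the control diet to ask how the null line responds to the flavonol. Saa1 (1419075_s_at) was 9.09, 10.39 and 10.72 in POR-null quercetin arrays, against 10.84, 10.99 and 11.48 in POR-null control arrays. All 3 quercetin arrays lay below all 3 control arrays. The mean was 10.07 ± 0.86 in quercetin arrays and 11.10 ± 0.33 in control arrays (SD, n = 3 each), a log2 difference of -1.04 (SE 0.39, 95% interval -1.88 to -0.20) or 2.05-fold lower, with an unadjusted p = 0.0195 and an adjusted p = 1.00 (limma). Saa1 (1450788_at) was 10.07, 11.15 and 11.67 in POR-null quercetin arrays, against 11.51, 11.70 and 12.17 in POR-null control arrays. Here quercetin array 3 lay above control array 1, and the log2 difference was -0.83 (SE 0.36, 95% interval -1.60 to -0.06, unadjusted p = 0.0368, limma). Saa2 was 7.53, 8.04 and 8.40 in POR-null quercetin arrays, against 8.30, 8.58 and 9.18 in POR-null control arrays. These groups overlapped at quercetin array 3, with a log2 difference of -0.70 (SE 0.28, 95% interval -1.31 to -0.09, unadjusted p = 0.0285, limma). In bulk tissue, fewer cells that make a transcript cannot be told apart from less of it per cell.

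Saa1 and Saa2 thus gave 3 of the 10 member probe sets at an unadjusted p below 0.05, all lower with quercetin, where 2.82% of all probe sets had such a p and 1.53% had it with a lower value. The 3 come from 1 locus, are not independent measurements and count as 1 observation. They rested on single arrays. Without POR-null quercetin array 1 the log2 differences were -0.55 for Saa1 (1419075_s_at), -0.38 for Saa1 (1450788_at) and -0.47 for Saa2, and no member kept an unadjusted p below 0.05. Without POR-null control array 3 they were -0.85, -0.64 and -0.45, again with none. Without POR-null quercetin array 2, the array high in acinar genes, they were -1.20, -0.92 and -0.72.

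**Figure D3:**
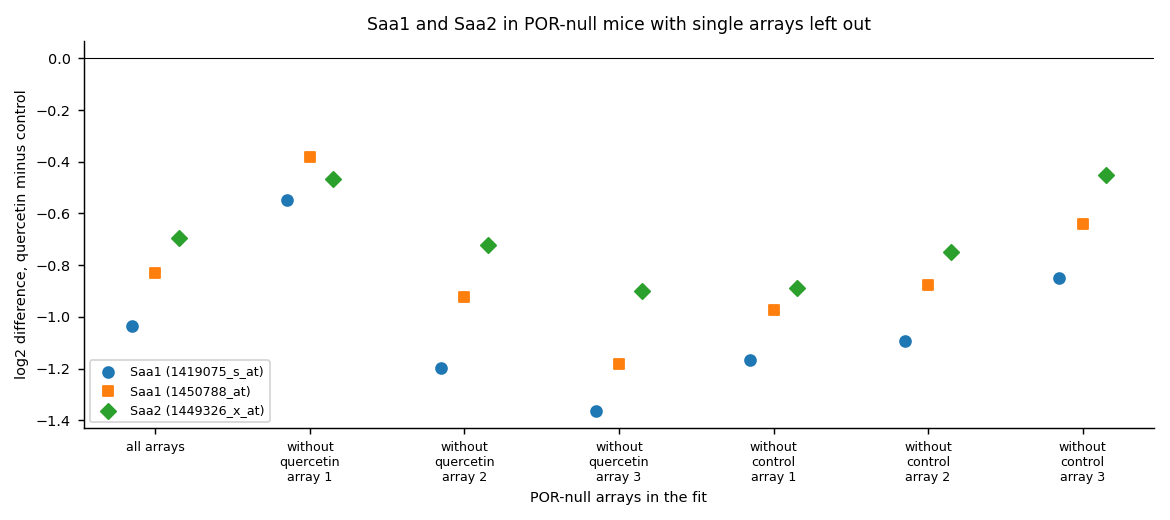
Log2 difference, quercetin minus control, of 3 Saa1 and Saa2 probe sets in POR-null mice (vertical axis), with all arrays and without each POR-null array in turn (horizontal axis). All points lie below 0, from -1.36 without quercetin array 3 to -0.38 without quercetin array 1.

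The other members of POR-null mice showed smaller differences with quercetin. Saa3, the serum amyloid A of macrophages and of fat and gut epithelium in mice, was 6.00, 6.24 and 6.12 in POR-null quercetin arrays, against 6.25, 6.16 and 6.61 in POR-null control arrays, a log2 difference of -0.22 (SE 0.20). Il18 was 8.52, 8.96 and 9.18 in POR-null quercetin arrays, against 9.32, 9.15 and 9.31 in POR-null control arrays. Control array 2 lay within the range of the quercetin arrays, and the log2 difference was -0.37 (SE 0.25, 95% interval -0.92 to 0.17, unadjusted p = 0.160, limma), or -0.19 without quercetin array 1. S100a8 was 4.43, 4.39 and 4.36 in POR-null quercetin arrays, against 4.56, 4.46 and 4.54 in POR-null control arrays. The groups did not overlap, but the log2 difference was only -0.13 (SE 0.08, unadjusted p = 0.132, limma), and the signal lay below the array's lower quartile on 12 of 12 arrays. S100a8 and Saa1 (1419075_s_at) were the 2 of 10 member probe sets without overlap in this comparison, which holds for 6.75% of all probe sets and, on the lower side, for 3.27%.

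Lcn2 was 5.83, 6.00 and 5.60 in POR-null quercetin arrays, against 5.81, 5.79 and 5.79 in POR-null control arrays, so the quercetin arrays lay on both sides of the control arrays. The log2 difference was 0.01 with a 95% interval of -0.24 to 0.26. S100a9 differed by 0.10 (interval -0.11 to 0.31), Nos2 by 0.05 (-0.25 to 0.36) and Pglyrp1 by -0.05 (-0.36 to 0.26). For these 4 genes both ends of the interval lay within 0.36 of 0. By gene, with Saa1 taken by its brighter probe set, 3 of 9 were higher and 6 lower with quercetin, with a median of -0.13 against 0.01 over all probe sets, of which 51.8% were higher and 46.8% lower.

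Markers of other cells differed between the same POR-null groups. B and plasma cell markers (8 of 10 measured) were lower with quercetin in 8 of 8, with a median log2 difference of -0.64 and list means of 6.15 to 6.82 in quercetin arrays and 6.66 to 7.93 in control arrays. Macrophage and dendritic cell markers (12 of 12 measured, of which 3 had a mean below the lower quartile) were lower in 10, with list means of 5.45 to 5.9 in quercetin arrays and 5.69 to 6.13 in control arrays. Acinar markers were higher in 7 of 8, with list means of 6.54 to 10.14 in quercetin arrays and 6.15 to 6.27 in control arrays. Smooth muscle markers were higher in 10 of 10 (median 0.24) and small intestine enterocyte markers in 8 of 10 (median 0.33). Goblet cell markers were lower in 7 of 8 (median -0.16). The part of these cells in the serum amyloid A values was not tested. Neutrophil markers (11 of 12 measured), whose cells carry S100a8, S100a9, Lcn2 and Pglyrp1, had list means of 6.44 to 6.48 in quercetin arrays and 6.31 to 6.47 in control arrays.

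In wild type mice the group means of Saa1 and Saa2 with quercetin and on the control diet lay close together, but the quercetin arrays spread widely. Saa1 (1419075_s_at) was 11.16, 9.74 and 10.87 in wild type quercetin arrays, against 10.47, 10.53 and 10.49 in wild type control arrays. Quercetin arrays 1 and 3 lay above all control arrays and array 2 lay below them. The mean was 10.59 ± 0.75 in quercetin arrays and 10.50 ± 0.03 in control arrays (SD, n = 3 each), a log2 difference of 0.09 (SE 0.39, 95% interval -0.75 to 0.93, unadjusted p = 0.814, limma). Saa1 (1450788_at) was 11.78, 10.60 and 11.58 in wild type quercetin arrays, against 11.34, 11.46 and 11.31 in wild type control arrays, with a log2 difference of -0.05. Saa2 was 8.59, 7.61 and 8.61 in wild type quercetin arrays, against 8.20, 8.10 and 8.20 in wild type control arrays, with a log2 difference of 0.10. In each probe set the SD of the quercetin arrays was 0.57 or more, against 0.079 or less in control arrays, and no test of this difference in spread was made. Markers of other cells differed between the same wild type groups. Smooth muscle markers were higher with quercetin in 10 of 10, with a median log2 difference of 2.24 and list means of 6.02, 7.40 and 9.24 in quercetin arrays 1, 2 and 3, against 5.57 to 5.89 in control arrays. B and plasma cell markers were higher in 8 of 8 (median 0.97), with list means of 6.55 to 7.68 in quercetin arrays and 5.79 to 7.04 in control arrays. Macrophage and dendritic cell markers were higher in 11 of 12, with list means of 5.70 to 5.92 in quercetin arrays and 5.29 to 5.78 in control arrays. Acinar markers were lower in 7 of 8 (median -1.21), with list means of 6.06 to 7.29 in quercetin arrays and 6.09 to 9.18 in control arrays. The part of these cells in the member values was not tested.

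Pglyrp1 was 9.90, 9.42 and 9.35 in wild type quercetin arrays, against 9.80, 9.71 and 9.93 in wild type control arrays. Quercetin arrays 2 and 3 lay below all control arrays and array 1 among them, with a log2 difference of -0.26 (SE 0.14, 95% interval -0.57 to 0.05, unadjusted p = 0.0962, limma). Without quercetin array 1 it was -0.43, with an unadjusted p = 0.00449 (limma), and without quercetin array 3 it was -0.15. Il18 was 9.70, 8.99 and 8.61 in wild type quercetin arrays, against 9.23, 8.51 and 8.78 in wild type control arrays, a log2 difference of 0.26 (SE 0.25). Single arrays set its size and sign, with -0.04 without quercetin array 1, 0.51 without quercetin array 3, 0.10 without control array 2 and 0.46 without control array 1. Saa3 was 6.03, 6.04 and 6.88 in wild type quercetin arrays, against 6.00, 6.23 and 6.40 in wild type control arrays, and only quercetin array 3 stood above the control arrays. The log2 differences of Lcn2, S100a8, S100a9 and Nos2 ran from -0.12 to 0.09. None of the 10 member probe sets had an unadjusted p below 0.05, as 5.15% of all probe sets did, and none was without overlap, as 9.31% were.

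On the control diet, POR-null mice were set against wild type mice. Saa1 (1419075_s_at), with the values given above, averaged 11.10 ± 0.33 in POR-null arrays and 10.50 ± 0.03 in wild type arrays (SD, n = 3 each). The log2 difference was 0.61 (SE 0.39, 95% interval -0.23 to 1.45, unadjusted p = 0.143, limma). Saa1 (1450788_at) differed by 0.42 (SE 0.36, unadjusted p = 0.256, limma) and Saa2 by 0.52 (SE 0.28, unadjusted p = 0.0888, limma). All POR-null arrays lay above all wild type arrays in each of the 3, though in Saa1 (1450788_at) the lowest POR-null array was at 11.51 and the highest wild type array at 11.46. These 3 of 10 member probe sets had no overlap, as 9.67% of all probe sets had and 4.81% on the higher side. As above, the 3 are not independent and count as 1 observation. None had an unadjusted p below 0.05, as 6.79% did. Without POR-null control array 3 the differences of Saa1 (1450788_at) and Saa2 were 0.24 and 0.27. In Saa1 (1419075_s_at), POR-null control arrays 1 and 2 were at 10.84 and 10.99, and the highest wild type control array was at 10.53.

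Il18 differed by 0.42 (SE 0.25, unadjusted p = 0.118, limma) between POR-null and wild type mice on the control diet, where POR-null arrays 1 and 3 stood above all wild type arrays. It differed by 0.26 without wild type control array 2. Saa3, Lcn2, S100a8, S100a9, Nos2 and Pglyrp1 differed by -0.17 to 0.13. By gene, 7 of 9 were higher and 2 lower, with a median of 0.12 against -0.01 over all probe sets, of which 46.2% were higher and 52.7% lower. B and plasma cell markers were higher in POR-null mice in 8 of 8, with list means of 6.66 to 7.93 in POR-null arrays and 5.79 to 7.04 in wild type arrays. Macrophage and dendritic cell markers were higher in 12 of 12, with list means of 5.69 to 6.13 in POR-null arrays and 5.29 to 5.78 in wild type arrays. Smooth muscle markers were higher in 10 of 10, with 5.91 to 7.43 in POR-null arrays and 5.57 to 5.89 in wild type arrays. Goblet cell markers were higher in 6 of 8. Other lists went the other way. Small intestine enterocyte markers were lower in 10 of 10 (median -0.67), acinar markers in 7 of 8 (median -1.58) and neutrophil markers in 10 of 11 (median -0.09). The part of all these cells in the member values was not tested.

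On the quercetin diet, POR-null and wild type arrays overlapped in all 10 member probe sets, where 6.82% of all probe sets did not. Saa1 (1419075_s_at) averaged 10.07 ± 0.86 in POR-null arrays and 10.59 ± 0.75 in wild type arrays (SD, n = 3 each), a log2 difference of -0.52 (SE 0.39, unadjusted p = 0.201, limma). Leaving out wild type quercetin array 2 gave -0.95, and leaving out POR-null quercetin array 1 gave -0.04. Saa1 (1450788_at) differed by -0.36, and by 0.09 without POR-null quercetin array 1. Saa2 differed by -0.28 (SE 0.28) and Il18 by -0.21 (SE 0.25), a value that became 0.09 when wild type quercetin array 1 was left out and -0.46 when array 3 of that group was. The other 6 genes differed by -0.20 to 0.10. None of the 10 had an unadjusted p below 0.05, as 2.39% of all probe sets did. Markers of other cells differed between these groups too. In POR-null mice B and plasma cell markers were lower in 8 of 8 (median -0.71) and smooth muscle markers in 9 of 10 (median -0.48). Acinar markers were higher in 8 of 8 (median 1.44) and small intestine enterocyte markers in 8 of 10 (median 0.23). The part of these cells in the member values was not tested.

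**Figure D4:**
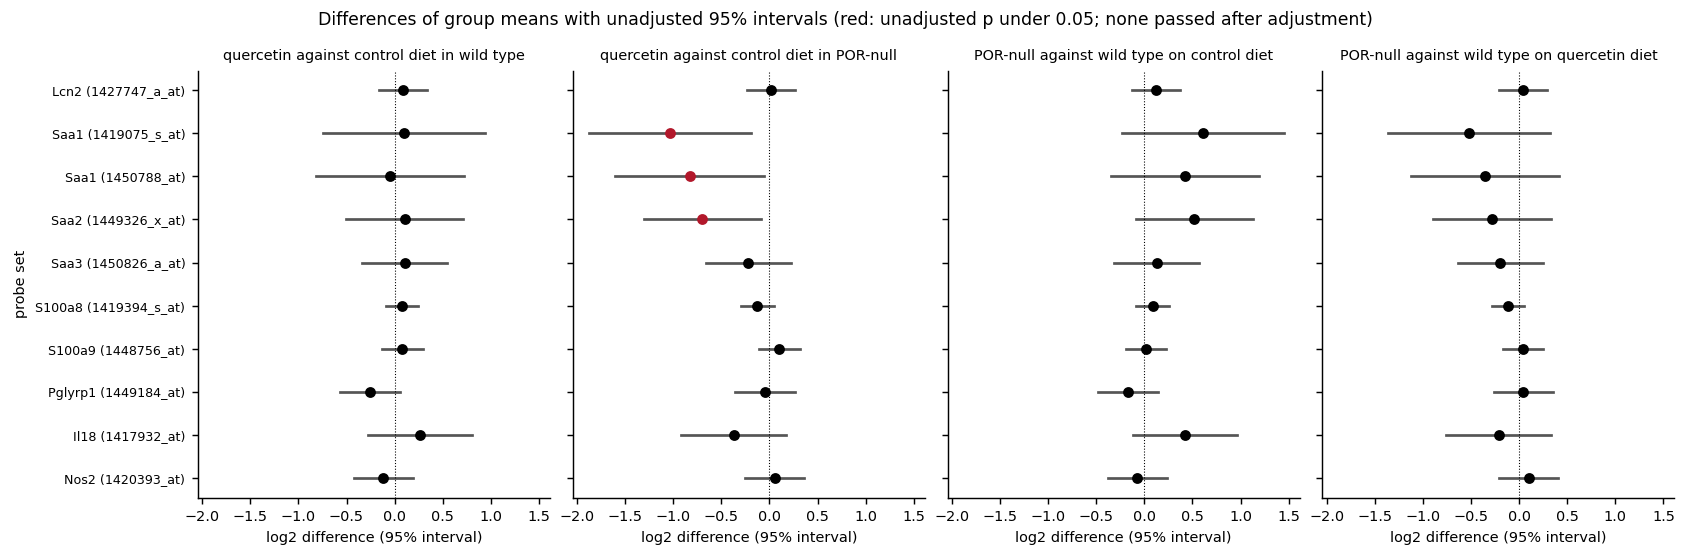
Log2 differences of group means (horizontal axes, first-named group minus second) for the 10 member probe sets in 4 comparisons, with unadjusted 95% intervals as bars; red marks an unadjusted p below 0.05. Only Saa1 and Saa2 in POR-null mice on quercetin against control diet are red, at -1.04, -0.83 and -0.70.

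The response to quercetin was compared between genotypes by an interaction term. For Saa1 (1419075_s_at) the response was -1.04 in POR-null and 0.09 in wild type mice, a difference of -1.13 (SE 0.55, 95% interval -2.32 to 0.06, unadjusted p = 0.0606, adjusted p = 0.998, limma). For Saa2 it was -0.70 in POR-null and 0.10 in wild type mice, a difference of -0.80 (SE 0.40, unadjusted p = 0.0667, limma), and for Saa1 (1450788_at) the difference was -0.78 (SE 0.50, unadjusted p = 0.146, limma). The difference for Saa1 (1419075_s_at) was -0.64 without POR-null quercetin array 1. It was -1.56 without wild type quercetin array 2, with an unadjusted p = 0.00742 (limma). Il18 had -0.63 (SE 0.35, unadjusted p = 0.0974, limma), or -0.33 without wild type quercetin array 1, and S100a8 had -0.20 (SE 0.11, unadjusted p = 0.0908, limma). None of the 10 member probe sets had an unadjusted p below 0.05, as 4.74% of all probe sets did. A response that misses the threshold in each genotype is thus also not shown to differ between them. These comparisons share groups. The POR-null control arrays were the group of the highest mean in Saa1. They serve both the quercetin comparison in POR-null mice and that of the genotypes on the control diet. Markers of other cells also differed in response between the genotypes. The difference was below 0 for B and plasma cell markers in 8 of 8 (median -1.73) and smooth muscle markers in 10 of 10 (median -1.87). It was above 0 for acinar markers in 7 of 8 (median 3.02) and small intestine enterocyte markers in 10 of 10 (median 0.86). The part of these cells in the member values was not tested.

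Besides Saa1 and Saa2, 2 pairs of members whose products act together or are made together were compared over the arrays. Neither correlation passed its test (permutation tests of 100000 resamples, p adjusted over both measures and 3 pairs, Saa1 and Saa2 included). Values were permuted over all 12 arrays without regard to groups, so these p do not test correlation within groups. S100a8 and S100a9, adjacent on chromosome 3 and joined in calprotectin, gave r = 0.278 over 12 arrays (permutation test, adjusted p = 0.719), rho = 0.225, r = 0.480 without the 2 arrays farthest from the median of S100a8, and r = 0.609 for deviations from the group means. Both gave low signal, S100a9 below the array's lower quartile on 11 of 12 arrays, and the part of low signal in these values was not tested. S100a9 was 4.74, 4.70 and 4.57 in POR-null quercetin arrays, 4.50, 4.48 and 4.72 in POR-null control arrays, 4.58, 4.64 and 4.66 in wild type quercetin arrays and 4.71, 4.42 and 4.51 in wild type control arrays. Saa3 and Lcn2 gave r = 0.0646 (permutation test, adjusted p = 0.842), rho = -0.137, and r = -0.267 without the 2 farthest arrays. Nos2 was 5.49, 5.15 and 5.26 in POR-null quercetin arrays, 5.11, 5.10 and 5.53 in POR-null control arrays, 4.95, 5.34 and 5.31 in wild type quercetin arrays and 5.26, 5.30 and 5.40 in wild type control arrays. All 4 groups of Nos2 overlapped.

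Genes around the members were taken from 8 lists with 106 measured genes: cytokines and receptors that induce the members, microbe sensing and transcription factors, other antimicrobial genes, other acute phase genes, receptors and partners of the members' products, other S100 genes, interleukin 18 processing, and nitric oxide and arginine metabolism. In each of the 5 comparisons, 0 of the 106 passed the adjusted threshold. With quercetin in POR-null mice, 0 were higher and 4 lower at an unadjusted p below 0.05 (3.77%, against 2.82% of all probe sets). The 4 were Il6st, Lrg1, Gch1, which opens the synthesis of the cofactor of Nos2 (-0.32, unadjusted p = 0.0159, limma), and Socs3, a feedback inhibitor of cytokine signalling (-0.33, unadjusted p = 0.0239, limma), of which Gch1 and Socs3 were picked after their values were seen. With quercetin in wild type mice, 8 were higher and 3 lower (10.4%, against 5.15%). In POR-null against wild type mice on the control diet 9 were higher and 3 lower (11.3%, against 6.79%), and on the quercetin diet 2 were higher and 4 lower (5.66%, against 2.39%). For the difference in response, 1 was higher and 7 lower (7.55%, against 4.74%).

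Among the inducing cytokines and receptors, Il6st, the gp130 signal chain shared by interleukin 6 and oncostatin M receptors, was 6.02, 5.71 and 6.10 in POR-null quercetin arrays, 7.11, 6.46 and 6.03 in POR-null control arrays, 6.31, 6.61 and 6.97 in wild type quercetin arrays and 6.01, 5.74 and 5.36 in wild type control arrays (1452843_at). With quercetin it differed by -0.59 in POR-null mice (unadjusted p = 0.0351, limma) and by 0.93 in wild type mice (unadjusted p = 0.00272, limma), where the groups did not overlap. The difference in response was -1.52 (SE 0.35, unadjusted p = 9.14e-04, adjusted p = 0.998, limma). For that difference its other probe sets 1421239_at and 1460295_s_at had -0.17 (unadjusted p = 0.360, limma) and -0.32 (unadjusted p = 0.0196, limma). With quercetin in POR-null mice they had -0.06 (unadjusted p = 0.650, limma) and -0.10 (unadjusted p = 0.265, limma). In wild type mice they had 0.11 (unadjusted p = 0.396, limma) and 0.22 (unadjusted p = 0.0220, limma). Ifngr2, a chain of the interferon gamma receptor, differed by -0.01 in POR-null and -0.27 in wild type mice with quercetin. Nfkbia, the inhibitor that NF-kappaB itself induces, differed with quercetin by 0.04 in POR-null and 0.28 in wild type mice (1420088_at), while its other 3 probe sets had -0.17 to -0.07 in POR-null and 0.09 to 0.25 in wild type mice. For the difference in response 1448306_at had -0.41 (unadjusted p = 0.0206, limma) and 1420088_at had -0.24 (unadjusted p = 0.0861, limma). Between genotypes on the control diet they had 0.40 (unadjusted p = 0.00339, limma) and 0.21 (unadjusted p = 0.0411, limma). For the difference in response 1449731_s_at had -0.28 (unadjusted p = 0.0885, limma) and 1420089_at had -0.16 (unadjusted p = 0.352, limma). Between genotypes on the control diet these had 0.26 (unadjusted p = 0.0293, limma) and -0.06 (unadjusted p = 0.610, limma). Irf1, a transcription factor of interferon signalling, differed with quercetin by -0.12 in POR-null and 0.35 in wild type mice.

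Among other antimicrobial genes, Itln1, an intestinal lectin of goblet and Paneth cells that binds microbial sugars, spread widely. It was 10.33, 10.89 and 12.19 in POR-null quercetin arrays, 10.95, 9.54 and 7.90 in POR-null control arrays, 6.82, 10.29 and 8.27 in wild type quercetin arrays and 11.71, 10.94 and 10.63 in wild type control arrays. With quercetin it differed by 1.67 in POR-null mice, with overlap, and by -2.63 in wild type mice (unadjusted p = 0.00727, limma), without overlap. Small intestine enterocyte markers (10 of 12 measured) differed between the same groups: with quercetin 8 of 10 were higher in POR-null mice and 10 of 10 lower in wild type mice, with list means of 8.03 to 8.73 in POR-null quercetin, 7.67 to 8.35 in POR-null control, 7.24 to 8.76 in wild type quercetin and 8.35 to 9.35 in wild type control arrays. Their part in the Itln1 values was not tested. Lyz2, the lysozyme of macrophages and a member of that marker list too, differed with quercetin by -1.01 in POR-null and 1.29 in wild type mice.

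Of the other acute phase genes, Cp, the copper protein ceruloplasmin, differed by 0.46 between POR-null and wild type mice on the control diet (1417494_a_at, unadjusted p = 0.00195, adjusted p = 0.71, limma). It was 5.61, 5.45 and 5.18 in POR-null control arrays, against 4.98, 4.94 and 4.93 in wild type control arrays, without overlap, while its other 6 probe sets ran from -0.08 (1417496_at) to 0.27 (1455393_at), 4 of them above 0, with the smallest p at 1448734_at (0.18, unadjusted p = 0.0107, limma). Lrg1, a leucine-rich glycoprotein of the acute phase, differed with quercetin by -0.40 in POR-null and 0.27 in wild type mice, at signals of 4.07 to 4.87. Of 16 genes of this list, 10 were lower and 6 higher with quercetin in POR-null mice, with a median of -0.05. Over all probe sets 46.8% were lower and 51.8% higher, and 7 of the 16 genes had a mean below the lower quartile. In the same comparison the receptors and partners had 1 of 7 lower, and Scarb1, a lipoprotein receptor that binds serum amyloid A, differed by 0.13. Between POR-null and wild type mice on the control diet Scarb1 differed by -0.47 (1416050_a_at, unadjusted p = 0.00714, limma), while its other probe sets had -0.07 and -0.03. Lrp2, a large endocytic receptor that takes up lipocalin 2, differed by 0.04 at signals of 3.49 to 3.76.

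In the remaining lists the genes named by their smallest p had log2 differences of -0.20 to 0.41 with quercetin in POR-null mice. S100a4, a calcium binding protein of motile cells, differed by 0.10, and S100a14, an epithelial family member, by -0.20. Casp4, the caspase that senses lipopolysaccharide inside cells, differed by -0.01, and Il18r1, a chain of the interleukin 18 receptor, by 0.09. Arg2, the mitochondrial arginase that competes with Nos2 for arginine, differed by 0.41 (SE 0.30), and Spr, sepiapterin reductase of the Nos2 cofactor pathway, by 0.07. Arg2 had its smallest p between genotypes on the control diet. It was 6.42, 5.99 and 6.01 in POR-null control arrays, against 6.95, 6.99 and 7.01 in wild type control arrays, a log2 difference of -0.84 (SE 0.30, unadjusted p = 0.0154, limma) without overlap, and its other probe set 1438841_s_at had -0.98 (unadjusted p = 0.00125, limma). Spr differed there by -0.39 (unadjusted p = 0.0158, limma).

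**Figure D5:**
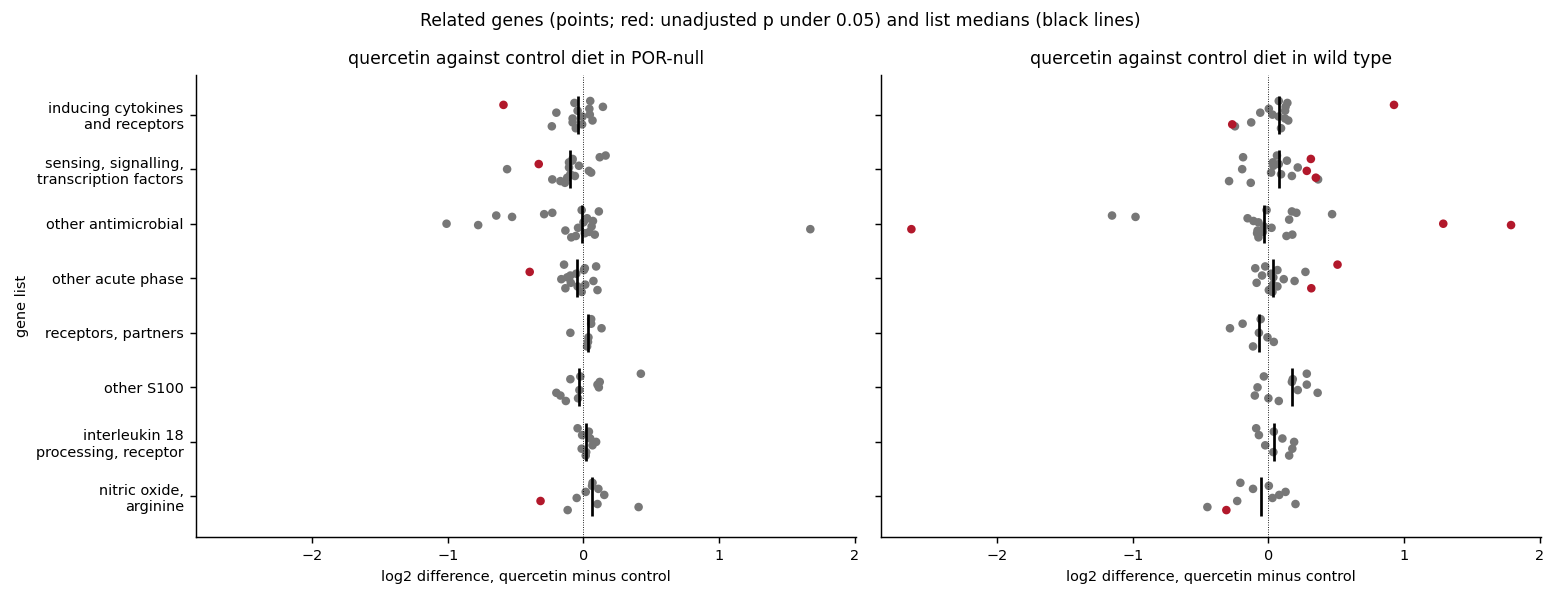
Log2 differences, quercetin minus control (horizontal axes), of 106 genes in 8 related lists, in POR-null (left) and wild type mice (right); each point is a gene, red marks an unadjusted p below 0.05 and black lines are list medians. List medians lie between -0.10 and 0.07 in POR-null mice and between -0.07 and 0.17 in wild type mice.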

How the data were processed

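The deposited table holds log2 signal per probe set of Affymetrix 430A arrays; the log base was inferred from its range of 2.7 to 14.09. MAS5 and RMA are named, per the submitters' processing notes, with neither a version nor a role. Values were used as deposited. Of 22690 probe sets, 64 controls were left out and 22626 tested without a filter on signal. The array annotation gave 1 symbol to 20380, several to 691 and none to 1555. By gene ID, 20351 matched RefSeq on GRCm38.p6 and 0 symbols changed. The files name no genome build.

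All 12 arrays entered 1 fit of 4 group means in limma 3.58.1 under R 4.3.3 (lmFit, then eBayes with an intensity trend), with 8 residual and 12.9 total degrees of freedom, two-sided tests, and Benjamini-Hochberg adjustment over all probe sets of each of 5 contrasts at a threshold of 0.05. The fit was tested on simulated data. SE are moderated, SD are over 3 arrays, and the number of arrays limits precision. Correlations used permutation tests. List genes were taken by their brightest probe set. All members are named, and from each related list the 2 genes of the smallest unadjusted p over the contrasts. The members and lists were chosen with earlier results of these data known. Alternatives were single arrays left out, array weights, quantile normalization, no intensity trend, dim probe sets left out, only the groups compared, and the replicate block.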

Additional observations from a re-analysis of the deposited data

How the results depend on the processing

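No member passed the adjusted threshold in any comparison under any alternative run; the lowest adjusted p of a member was 0.245. Member probe sets at an unadjusted p below 0.05 numbered 0 to 4 in POR-null against wild type on the control diet. They numbered 0 to 4 with quercetin in POR-null mice and 0 to 3 for the difference in response. Between genotypes on the quercetin diet they numbered 0 to 2, and with quercetin in wild type mice 0 to 1. In the same order, 6.79%, 2.82%, 4.74%, 2.39% and 5.15% of all probe sets had such a p in the main fit. These shares were not taken under the alternatives. Fitting only the groups compared gave the 4 in POR-null against wild type on the control diet, which were both Saa1 probe sets, Saa2 and Il18. As above, the Saa1 and Saa2 probe sets count as 1 observation. Over all probe sets, array weights gave 399 calls in POR-null against wild type on the control diet and leaving out wild type control array 1 gave 41, against 0 with all arrays at equal weight; the cause was not tested. In every other comparison and alternative run the calls numbered 0 to 3. Wild type quercetin array 3 and POR-null quercetin array 2 were also left out together, chosen after seeing the data. This left 2 member probe sets at an unadjusted p below 0.05 with quercetin in POR-null mice, again without a share over all probe sets. The correlation of S100a8 and S100a9 was 0.609 for deviations from group means.

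Replicate numbers do not pair the arrays by the labels. Same-numbered arrays of different groups correlated in their deviations at -0.19 to 0.26 over 18 pairs, 6 of them above 0.1, and 8 of 12 arrays correlated best with their own number, which is a hint from the data. With the replicate block, 0 members passed and Saa1 (1419075_s_at) kept -1.04 with quercetin in POR-null mice (unadjusted p = 0.0191, limma). The block moved the calls over all probe sets to 1 between genotypes on the quercetin diet and left 0 in the others. Groups of 3 pools limit what could be detected. S100a8 and S100a9 lay below the array's lower quartile on 12 and 11 of 12 arrays, and what this low signal did to their results was not tested.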
